A study of Oryza sativa with 6 samples.

Results

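RAB16B, RAB16C, RAB16D, rab25 and Dhn1 are 5 dehydrin genes of rice (Oryza sativa). They were taken as the genes whose symbol or synonym in the gene table carries 1 of these names, and each had a single probe, so 5 probes of 5 genes were followed among 17706 tested probes of 15702 genes. Leaf RNA of Apo, which the submitters call drought tolerant, and of IR64, which they call susceptible, was measured on 3 two-colour Agilent rice arrays per genotype. Each array carried drought-stressed leaves in Cy3 and well-watered leaves of the same genotype in Cy5, from greenhouse plants. Water was withheld from day 33 after sowing, for 5 days by the sample labels and 6 days by the series text, and well-watered leaves were taken on day 37. Whether the replicates were separate plants is not recorded, so p-values here reflect variation among these extracts alone, and that variation may be technical.

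Dehydrins are hydrophilic, largely unfolded proteins of the late embryogenesis abundant (LEA) class, recognised by a lysine-rich K segment that can bind membranes and other proteins. Plants make them in maturing seeds, and in leaves and roots during water deficit, cold, salt stress and treatment with abscisic acid (ABA), the hormone of water deficit. The name rab stands for responsive to ABA, and these genes are not related to the Rab GTPases. Factors of the bZIP family that act downstream of SnRK2 kinases are known to bind ABA response elements in the promoters of RAB16 genes. Dhn1 is also listed as LIP9, a cold-responsive gene that is known in rice as a target of DREB1 factors.

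The values are within-array log ratios of the 2 channels, deposited without their sign convention. The scanner software writes log10, and the base is taken as 10 here; p-values and calls do not depend on it, but every ratio on a linear scale does. Under the software's usual Cy5 over Cy3 order a positive value is a higher level in well-watered leaves, and under a drought over control order it is a higher level in stressed leaves. The sources used here do not settle which, so values are called positive or negative. All pairs of arrays correlated positively over the tested probes, the lowest at 0.624, so the arrays run the same way. IR64 replicate 1 stood apart from its genotype: its correlations were 0.831 to 0.894 with Apo arrays but 0.755 to 0.767 within IR64, whose other arrays correlated at 0.938. The dehydrin results in IR64 are therefore also given without it, as are changed results of other water-deficit genes and of chromosome neighbours. The 4 leaf markers of the light-harvesting complex that were measured could not be used to check the tissue, because ratios carry no level. Of these, 3 were called negative and none positive in Apo, and 2 and none in IR64. Negative calls took 25.6% of all tested probes in Apo and 20.2% in IR64, and positive calls 24.5% and 22.7%. The Apo call of the marker RCABP89 was lost without IR64 replicate 1 (limma adjusted p = 0.0657).

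All 5 dehydrins were positive past the adjusted threshold of 0.05 in Apo and again in IR64, and all 30 member values on the 6 arrays were above 0. Among all tested probes 24.5% were called positive in Apo and 22.7% in IR64; negative calls took 25.6% and 20.2%, and calls of either sign 50.2% and 43.0%. The median of the 5 mean ratios was 1.22 in Apo and 1.27 in IR64, while the median over all tested probes was -0.0032 in Apo and 0 in IR64. The 95th percentile of all tested probes lay at 0.514 in Apo and 0.421 in IR64, below the lowest dehydrin mean of each genotype, 0.935 and 0.685. On single arrays the member values ran between 0.653 and 1.84, and between 0.0113% and 2.79% of the tested probes stood above a dehydrin on its array. These were whole-leaf extracts, in which a change in the number of cells of a type and a change in RNA per cell cannot be told apart. Drought was in Cy3 on each array, so a dye effect of a probe and a drought response cannot be told apart in these calls within a genotype.

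**Figure D1:**
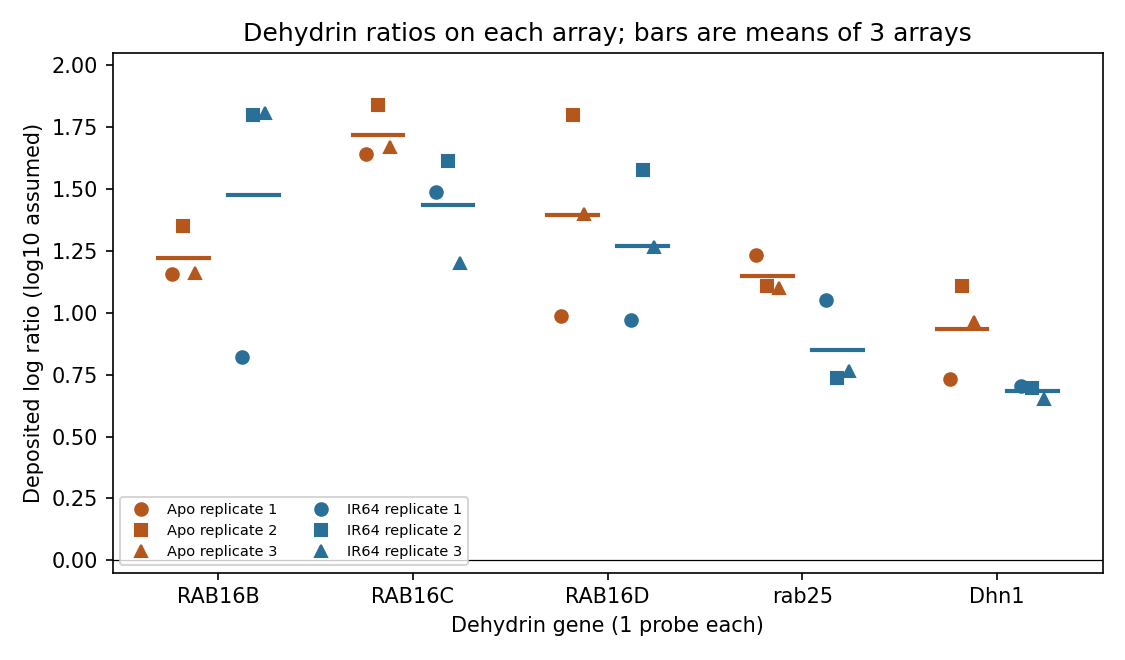
Deposited log ratios (log10 assumed, vertical axis) of the 5 dehydrin probes on each array, Apo at the left and IR64 at the right of each gene; marker shapes give the replicate and bars the mean of 3 arrays. All points lie above 0, RAB16C has the highest Apo mean (1.72), and the IR64 points of RAB16B are split between 0.822 and a pair near 1.80.

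RAB16B, RAB16C and RAB16D belong to the tandem RAB16 family, whose members have related sequences. In the RefSeq gene order of the assembly ASM3414082v1 they lie on 1 chromosome in a stretch of 6 genes that also holds RAB21, the gene known as RAB16A. RAB16D and RAB16C are direct neighbours, 2 entries, a long non-coding RNA and a pseudogene, separate RAB16C from RAB16B, and RAB21 follows RAB16B. No probe used here was annotated to RAB21. Cross-reading of a RAB16 probe by RNA of its relatives was not tested, and probe sequences were not used.

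RAB16C (LOC4350452, probe accession AK071366) had log ratios of 1.64, 1.84 and 1.67 on the Apo arrays, against 1.49, 1.61 and 1.20 on the IR64 arrays. Every Apo value was above every IR64 value, although the gap between 1.64 and 1.61 was small. Its mean was 1.72 ± 0.107 in Apo (SD, n = 3), limma adjusted p = 2.37e-05, and 1.43 ± 0.210 in IR64, adjusted p = 5.29e-05. If the base is 10, these means stand for 52.2-fold and 27.1-fold unequal levels. Only 5 of the 17706 tested probes had a higher mean in Apo, and 13 in IR64. Without IR64 replicate 1 its IR64 mean was 1.41.

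RAB16B (LOC4350453, AK063517) had log ratios of 1.15, 1.35 and 1.16 on the Apo arrays, against 0.822, 1.80 and 1.81 on the IR64 arrays. The IR64 arrays therefore spanned the Apo values, with replicate 1 below all Apo arrays and replicates 2 and 3 above them. The mean was 1.22 ± 0.111 in Apo (adjusted p = 0.00208 by limma) and 1.48 ± 0.566 in IR64 (adjusted p = 0.00124), the widest spread of the 5 genes in IR64. In IR64 replicate 2, 2 tested probes stood higher than RAB16B, and in replicate 3 there were 3. Without IR64 replicate 1 the IR64 mean was 1.80.

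RAB16D (LOC4350451, AK109096) had log ratios of 0.986, 1.80 and 1.40 on the Apo arrays, against 0.970, 1.58 and 1.27 on the IR64 arrays. The groups overlapped, and in both genotypes replicate 1 was the lowest and replicate 2 the highest. The mean was 1.40 ± 0.407 in Apo (adjusted p = 0.000701 by limma), the widest Apo spread among the dehydrins, and 1.27 ± 0.303 in IR64 (adjusted p = 0.00137). Without IR64 replicate 1 its IR64 mean was 1.42.

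The other dehydrins lie on other chromosomes than the RAB16 genes and had smaller mean ratios, although rab25 stood above RAB16B and RAB16D on replicate 1 of both genotypes. For rab25 (LOC4326935, AK063691), also listed as rDRP1, the log ratios were 1.24, 1.11 and 1.10 on the Apo arrays, against 1.05, 0.737 and 0.765 on the IR64 arrays. The groups did not overlap, and IR64 replicate 1 lay closer to the Apo arrays than to the other IR64 arrays. The mean was 1.15 ± 0.0757 in Apo (adjusted p = 4.32e-05 by limma) and 0.851 ± 0.174 in IR64 (adjusted p = 0.000186), or 0.751 without IR64 replicate 1. Dhn1 (LOC4330265, AK070197) had log ratios of 0.732, 1.11 and 0.962 on the Apo arrays, against 0.704, 0.697 and 0.653 on the IR64 arrays. Here too the groups did not overlap, and IR64 varied least, while the lowest Apo array was only just above IR64. The mean was 0.935 ± 0.191 in Apo (adjusted p = 9.49e-05) and 0.685 ± 0.0280 in IR64 (adjusted p = 0.000448), or 0.675 without IR64 replicate 1. If the base is 10, the means of Dhn1 stand for 8.60-fold and 4.84-fold unequal levels and those of rab25 for 14.1-fold and 7.10-fold.

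The order of the genes by ratio was not the same on all arrays. RAB16C was highest on 4 arrays, the 3 of Apo and IR64 replicate 1, and RAB16B on the other 2, IR64 replicates 2 and 3. Dhn1 was lowest on 5 arrays and tied with rab25 at 1.11 on Apo replicate 2, whose values were deposited to 3 significant digits. RAB16B stayed above Dhn1 on all 6 arrays. Within arrays RAB16B minus RAB16C was -0.487, -0.490 and -0.510 in Apo, against -0.665, 0.188 and 0.605 in IR64. That difference varied little in Apo, with an SD of 0.0124 over 3 arrays, and widely in IR64, with an SD of 0.647. RAB16B minus RAB16D averaged -0.173 ± 0.315 in Apo and 0.205 ± 0.344 in IR64, and the arrays of the genotypes overlapped. No p is given for these pairs, since 3 arrays against 3 cannot reach an exact permutation p below 0.1.

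**Figure D2:**
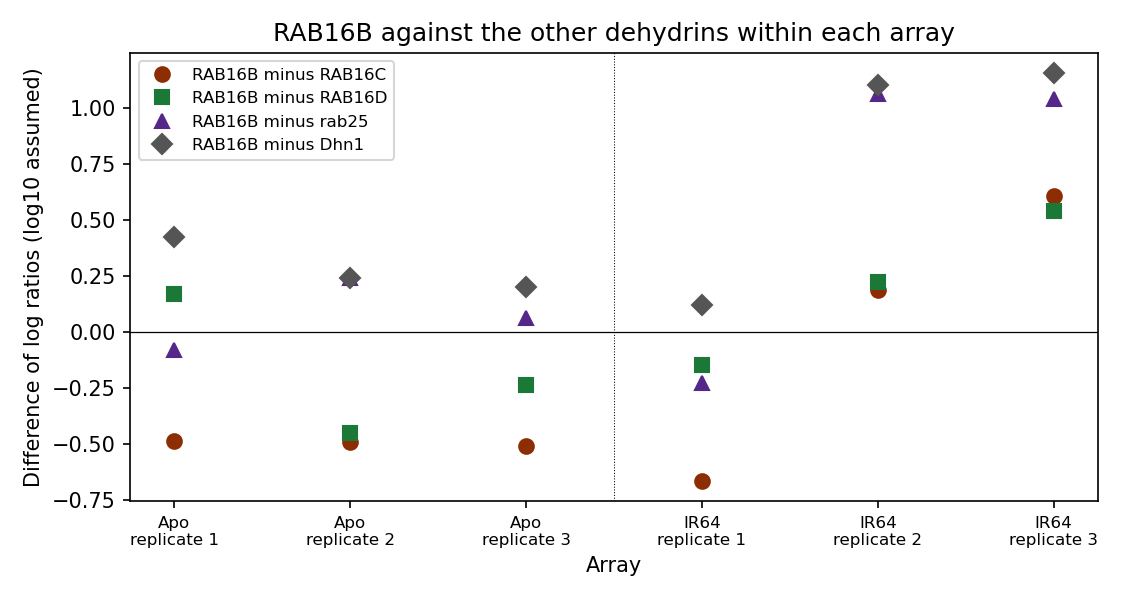
Difference between the log ratio of RAB16B and that of each other dehydrin within each array (vertical axis, log10 units assumed), Apo arrays at the left and IR64 arrays at the right of the dotted line. RAB16B lies below RAB16C on the Apo arrays and IR64 replicate 1 and above it on IR64 replicates 2 and 3.

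The ratios of the genotypes were then compared directly, a contrast from which a dye effect shared by all arrays drops out. No dehydrin passed the adjusted threshold for Apo minus IR64 by limma, where 2.02% of all tested probes were called, 0.774% with a positive and 1.25% with a negative difference. When replicate number entered as a block, 5.37% of all probes were called and still no dehydrin. In that limma fit the adjusted p was 0.0537 for rab25, 0.0845 for RAB16C, 0.129 for Dhn1, 0.181 for RAB16D and 0.424 for RAB16B. Unadjusted and without the block, 3 of the 5 had a p under 0.05 by limma. The share of all tested probes under that unadjusted limit is not given here, so this count is not a result about dehydrins. The largest positive difference was that of rab25, 0.296 with a 95% interval of 0.0718 to 0.521 and an adjusted p = 0.117. RAB16C had a difference of 0.284 (interval 0.0126 to 0.556, adjusted p = 0.170) and Dhn1 of 0.250 (0.0227 to 0.477, adjusted p = 0.157). RAB16D stood at 0.124 with an interval of -0.435 to 0.683 (adjusted p = 0.745), and RAB16B at -0.254 with an interval of -0.888 to 0.380 (adjusted p = 0.546). Under quantile normalization the differences of rab25, RAB16C and Dhn1 were smaller, at 0.0961, 0.103 and 0.104. RAB16C stood at 0.135 with arrays of equal spread and 0.168 without IR64 replicate 3, and Dhn1 at 0.162 without Apo replicate 2. RAB16D and RAB16B had the widest intervals of the 5, and both include 0.

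RAB16C, rab25 and Dhn1, 3 of the 5, had all Apo arrays above all IR64 arrays, a pattern that 15.3% of all tested probes showed, and 21.9% of the 2782 probes called positive in both genotypes. The opposite pattern, with Apo below, was shown by 19.2% of all probes and by no dehydrin. When each array was scaled to the same spread, none of the 5 had the Apo arrays above without overlap, against 13.8% of all probes. The median of the 5 differences was 0.250, against -0.0073 over all tested probes and 0.0289 over the probes positive in both genotypes. It was 0.135 with equal spread, 0.0961 with quantile normalization and 0.162 without Apo replicate 2.

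IR64 replicate 1 was the only array whose omission brought dehydrins past the threshold for the genotype difference. Without it rab25 had a difference of 0.397 (interval 0.260 to 0.533, adjusted p = 0.00805 by limma) and RAB16B of -0.581 (-0.762 to -0.401, adjusted p = 0.00667), so 2 dehydrins were called, with opposite signs. At the same time 33.6% of all tested probes were called. RAB16C (0.311, adjusted p = 0.142), Dhn1 (0.260, 0.143) and RAB16D (-0.0265, 0.948) were not called. With only replicates 2 and 3 of IR64, the arrays of RAB16C, rab25 and Dhn1 in Apo lay above those of IR64, as for 28.9% of all probes, and those of RAB16B below, as for 34.1%. Limma's array weights, estimated over all probes, were 0.148 for IR64 replicate 1 and between 0.483 and 5.06 for the other arrays.

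**Figure D3:**
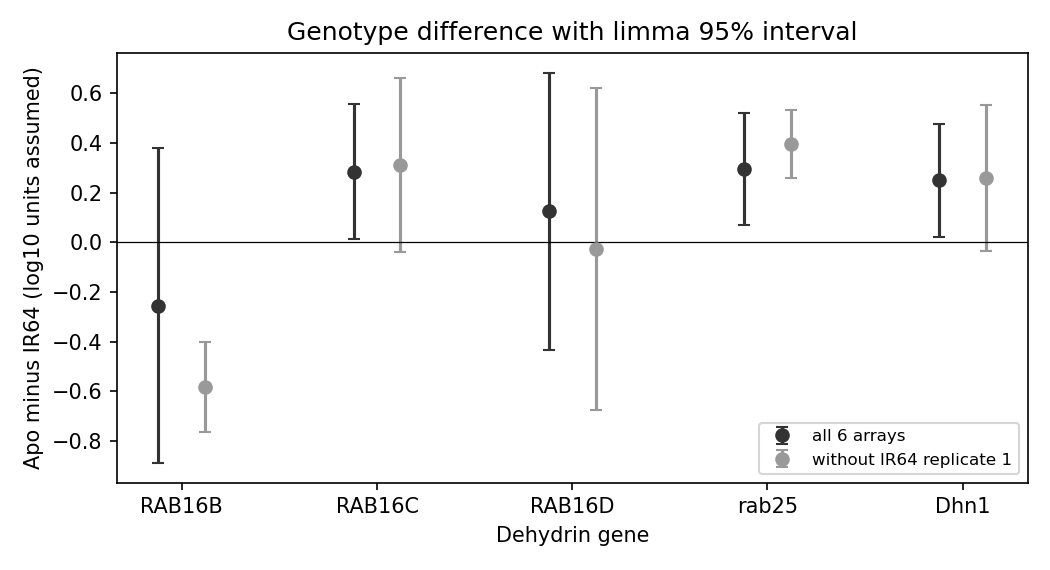
Apo minus IR64 difference of the mean log ratio (vertical axis, log10 units assumed) for each dehydrin, with limma's 95% interval, for all 6 arrays (dark) and without IR64 replicate 1 (grey). Without that array the interval of RAB16B lies below 0 and that of rab25 stays above 0, while those of RAB16C and Dhn1 come to include 0.

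Other genes of water deficit were counted from lists of names. A list of LEA and other water-deficit proteins outside the 5 dehydrins held 4 probes, all 4 positive in Apo and 3 in IR64. Positive calls took 24.5% of all tested probes in Apo and 22.7% in IR64. The list medians were 1.64 and 1.06, against -0.0032 in Apo and 0 in IR64 over all tested probes. OsPM19L1, a plasma membrane protein of the AWPM-19 family, averaged 1.96 ± 0.130 in Apo and 1.77 ± 0.165 in IR64. LTI6B, which encodes a short membrane protein known as cold-responsive, averaged 1.98 ± 0.0672 in Apo and 1.28 ± 0.337 in IR64. The lectin-like salT stood at 0.856 ± 0.0719 in Apo and 0.846 ± 0.0474 in IR64. Emp1, an LEA protein of seeds, had log ratios of 1.18, 1.48 and 1.28 on the Apo arrays, against 0.848, 0.205 and 0.159 on the IR64 arrays. It was the member not called in IR64 (mean 0.404, adjusted p = 0.0512 by limma; 0.182 and 0.0971 without IR64 replicate 1), and its difference of 0.907 did not pass the threshold (adjusted p = 0.0644). The median difference of this list was 0.450, against -0.0073 over all tested probes. No probe of it was called for the difference by limma. Of the 4, Emp1 and LTI6B had an unadjusted p under 0.05, again without the share over all tested probes. The same 2 were called without IR64 replicate 1, at differences of 1.13 and 0.894, a setting that called 33.6% of all tested probes.

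ABA receptors, SnRK2 kinases, protein phosphatases 2C and ABA-related transcription factors were covered by 22 probes of 20 genes. In Apo 15 were positive, 3 negative and 4 not called, and in IR64 10, 3 and 9, with list medians of 0.337 and 0.130. Over all tested probes the positive share was 24.5% in Apo and 22.7% in IR64, and the negative share 25.6% and 20.2%. The phosphatase OsPP2C59 averaged 1.58 ± 0.0449 on the Apo arrays and 1.28 ± 0.0752 on the IR64 arrays, the smallest p of the list in each. The kinase SAPK1 averaged 1.26 ± 0.0563 in Apo, against 0.693 ± 0.165 in IR64. The phosphatase PP2C30 averaged 0.775 ± 0.00987 in Apo, against 0.506 ± 0.124 in IR64. SAPK1 was the only probe of the list called for the difference (0.564, adjusted p = 0.0388 by limma), while 11 positive and 1 negative were called without IR64 replicate 1. With the replicate block 4 were called, SAPK1, the phosphatases OsPP2C59 and OsPP2C27, and the B3 factor VP1. For the difference, 2.02% of all tested probes were called as reported, 33.6% without IR64 replicate 1 and 5.37% with the block. The median difference of the list was 0.199, and its IR64 median without IR64 replicate 1 was 0.0699. For ABA synthesis and breakdown 3 probes matched by name, of which ABA8OX1 has a known role in it. ABA8OX1, an enzyme that breaks ABA down, was positive in Apo at 0.378 ± 0.0857 and not called in IR64 at -0.0084 ± 0.123, or -0.0786 without IR64 replicate 1. Its difference of 0.386 was not called (adjusted p = 0.0597 by limma), but was with the replicate block (0.0353) and without IR64 replicate 1 (0.00735). TRAB1, a bZIP factor that is known in rice to act with VP1 on the Em gene and that matched both lists through its names, stood at 0.214 ± 0.127 in Apo, called, and 0.0584 ± 0.146 in IR64, not called (-0.0254 without IR64 replicate 1). BG1 matched through a name that may not reflect a role in ABA metabolism, and stood at -0.333 ± 0.125 in Apo, called, and -0.137 ± 0.0367 in IR64, not called, but called with the replicate block (adjusted p = 0.0337 by limma).

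**Figure D4:**
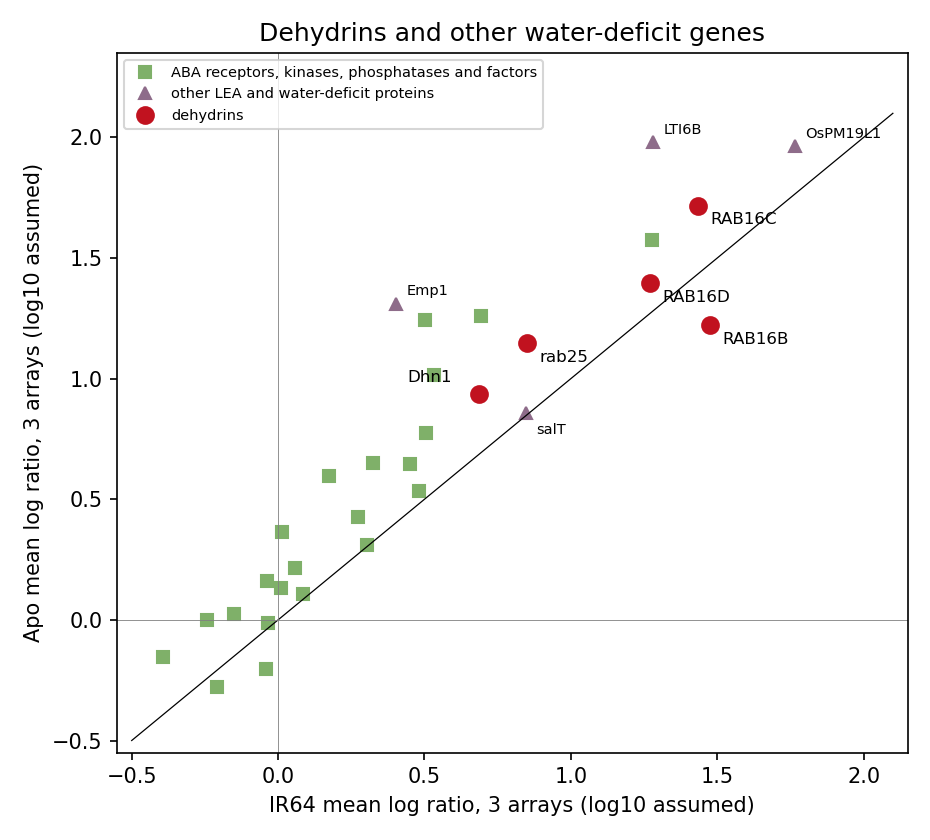
Mean log ratio over 3 arrays (log10 assumed) in Apo (vertical axis) and IR64 (horizontal axis) for the 5 dehydrins (circles), other LEA and water-deficit proteins (triangles) and ABA receptors, kinases, phosphatases and factors (squares), with the line of equal values. RAB16B is the only dehydrin below the line (1.22 in Apo, 1.48 in IR64), and most squares lie lower on both axes than the dehydrins.

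Dehydrins are also abundant in seeds, and seed storage names were therefore looked up. Of 7 matching probes, 1 was positive and 1 negative in Apo, and none positive and 1 negative in IR64, with list medians of -0.0828 and -0.0360. Of all tested probes 24.5% were positive and 25.6% negative in Apo, and 22.7% and 20.2% in IR64. RAG2, a seed allergen, stood at 0.142 ± 0.0811 in Apo and the globulin GLB1 at -0.232 ± 0.0898. The negative probe of IR64 was MADS3, which matched only through an older synonym and is a floral factor. Of the root markers, 1 probe was tested and not called in either genotype. Because ratios carry no level, these names cannot show whether seed or root tissue was present.

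Genes with the most similar profiles were sought among 2094 other named genes, by the root mean square difference of the log ratio over the 6 arrays. RAB16C lay nearest to ELA3 (0.134), followed by the phosphatase OsPP2C59 (0.188) and Osr40c1 (0.251). For rab25 the nearest were the Clp chaperone CLPD1 (0.0717), the cytochrome P450 CYP71P1 (0.0873) and CH16 (0.1002). For Dhn1 they were the pectin methylesterase inhibitor OsPMEI8 (0.0970), the beta-glucosidase BGLU26 (0.148) and OsZIP4 (0.150), of a metal transporter family. RAB16D lay nearest to MT21A (0.199), the CCCH zinc finger protein OsC3H37 (0.232) and the small heat shock protein HSP26.7 (0.265). RAB16B had no neighbour as close, with OsC3H37 at 0.310, MT21A at 0.352 and OsSWEET15, a sugar transporter, at 0.377. Among the dehydrins themselves the closest pair was rab25 and Dhn1 (0.260), then RAB16B and RAB16D (0.329) and RAB16C and RAB16D (0.361), and the farthest RAB16C and Dhn1 (0.776).

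Nearby genes on the chromosome had other ratios. Calls of either sign took 50.2% of all tested probes in Apo and 43.0% in IR64, and 57.4% and 47.7% without IR64 replicate 1. The difference was called for 2.02% of all tested probes, for 33.6% without that array and for 5.37% with the replicate block. The share called in IR64 with the block is not given here. Before the RAB16 stretch the nearest gene with a tested probe, LOC9268444, had 13 genes between it and RAB16D and was at 0.0577 in Apo and -0.0337 in IR64, or -0.0767 without IR64 replicate 1. After it came LOC4350455, with 2 genes between it and RAB16B, at -0.260 in Apo and 0.195 in IR64, neither called by limma (adjusted p = 0.0580 and 0.141). Without IR64 replicate 1 it was negative in Apo (adjusted p = 0.00801) and positive in IR64 at a mean of 0.341 (0.00873), and with the replicate block its IR64 ratio (0.0270) and its difference of -0.455 (0.0450) were called; the difference was -0.601 without IR64 replicate 1 (0.00759). The gene next to rab25, LOC4324241, was negative in Apo at -0.523 (adjusted p = 0.00780) and at 0.254 in IR64, not called (adjusted p = 0.106). Its IR64 ratio was called with the replicate block (0.00407) and, at a mean of 0.403, without IR64 replicate 1 (0.0224). Its difference of -0.777 was not called (adjusted p = 0.0597 by limma), but was with the replicate block (0.0319) and without IR64 replicate 1 (-0.926, 0.00807). On the other side of rab25, with 3 genes between, LOC4326932 was at -0.169 in Apo and -0.0788 in IR64, neither called (0.107 and 0.437). Without IR64 replicate 1 it was negative and called in both (0.00441 and 0.00679), at an IR64 mean of -0.203. The gene before Dhn1, LOC4330264, had 3 probes with means of 0.0078, 0.388 and 0.0326 in Apo and -0.0699, 0.267 and 0.0913 in IR64, of which the middle one was called in both genotypes, and the first also in IR64 without replicate 1 (-0.101, adjusted p = 0.0353 by limma). After Dhn1, with 1 gene between, LOC4330267 was at -0.153 in Apo and -0.0665 in IR64. Neither was called by limma (adjusted p = 0.0576 and 0.369), nor without IR64 replicate 1 (0.0610 and 0.733).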

How the data were processed

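The authors deposited 1 log ratio per spot and array, taken here as log10. The base is not recorded; the submitters' processing notes name Agilent Feature Extraction 8.1, which writes log10. Neither these notes nor the labels describe dye normalization, background correction or centring. RNA was extracted with TRIzol and amplified with a kit for low RNA input, per the labels' protocols. Of 22575 spots, 17839 had 1 annotated gene, 21 several and 4715 none. All 17839 were found in the RefSeq gene table, used for names and gene order only. Of these one-gene spots, 133 had a deposited value of exactly 0 on each array and were dropped. Channel intensities were not used, so no probe could be placed relative to background, and precision is limited by having 3 arrays per genotype.

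Ratios were used as deposited. For the 17706 probes limma 3.58.1 (R 4.3.3) fitted 1 coefficient per genotype, with eBayes. Resulting p-values were adjusted by Benjamini-Hochberg over all probes, and the code was tested on simulated data. Figures used Python 3.11.15 with matplotlib 3.10.9. Same-numbered Apo and IR64 arrays deviated together from their genotype means (correlations of 0.322, 0.261 and 0.340 across probes). The main fit left this pairing out, and the replicate block among the alternatives took it in. The alternatives were other scalings and filters, array weights, the replicate block and leaving out each array. The members, gene lists and tests were chosen with earlier results of these data known. All probes of the 5 genes are named. List members named are the 3 smallest p-values past the threshold in a comparison, and the 3 nearest named genes are given for each dehydrin; Emp1, OsPP2C27, VP1 and the chromosome neighbours were named outside that rule, after their values were seen.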

Additional observations from a re-analysis of the deposited data

Results flagged for a closer look

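The genotype difference of the kinase SAPK1 passed the adjusted threshold of limma, with 0.564 between a mean of 1.26 in Apo and 0.693 in IR64, and all 3 Apo arrays above all 3 IR64 arrays. No such difference was called for a dehydrin. Among alternatives the SAPK1 call was lost with arrays scaled to equal spread (0.472, adjusted p = 0.0762), with spots at 0 on all arrays kept (adjusted p = 0.0515), with all spots tested (adjusted p = 0.0637), and without any single array other than IR64 replicate 1 (adjusted p between 0.124 and 0.174).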

How the results depend on the processing

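In Apo and in IR64 all 5 dehydrins stayed positive and called under each of the 17 alternatives run, and the count without a replicate was 5 in each case. The count called for Apo minus IR64 was 4 with array weights and ranged from 0 to 2 with 1 array left out, the 2 being without IR64 replicate 1. Paired fits with the replicate number as a block changed no dehydrin call and kept 5, 5 and 0. With array weights RAB16B (-0.577), RAB16C (0.341), rab25 (0.343) and Dhn1 (0.296) were called, but so were 8540 of 17706 probes, against 358 as reported and 951 with the block. That total was 5953 without IR64 replicate 1 and between 0 and 12 without any other array. In IR64 5073 probes were called without IR64 replicate 2, against 7611. The difference of RAB16D turned to -0.00967 with equal spread, -0.0783 without Apo replicate 2 and -0.0265 without IR64 replicate 1, with 0.329 without Apo replicate 1 as the highest, and was called in none of these. No overlap with Apo above held for 3 dehydrins as deposited and after centring, and for 0 with equal spread or quantile normalization, alternatives chosen after seeing the data for this count. The positive count of ABA signalling probes for the difference was 15 with array weights, 4 with the replicate block and 0 with equal spread, and that of ABA synthesis and breakdown was 1 with the block, against 0. The median dehydrin difference ranged from 0.0961 to 0.322 over its alternatives. TRAB1 in Apo lost its call under 5 alternatives. The causes were not tested.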
